A study of Rattus norvegicus with 10 samples.

Results

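A set of 9 genes of calcium entry were followed, taken as the rows of the deposited expression table whose symbol was Orai1, Orai2, Orai3, Stim1, Cacna1c, Cacna1g, Cacnb2, P2ry2 or Trpv2. All 9 were found, each as 1 transcript, among the 17221 transcripts of the table, and all 9 were among the 10259 transcripts that passed the filter on low values and were tested. The tissue was subcutaneous muscle of Wistar rats, all of them females with collagen-induced arthritis (the labels write RA). Immunisation with collagen leads to swollen joints, and every group carried the disease and no healthy animals were included here. The 10 libraries, from 10 rats, fall into 5 groups of 2 animals. RA_0 was sampled before any therapy. AP_1h and AP_34d were sampled at 1 h and at 34 d of acupuncture, and PLA_1h and PLA_34d at the same times of placebo. Per the study's methods, acupuncture was the insertion and twirling of a short needle on both sides at the lower back and below the knee, the placebo was sterile saline injected into the peritoneum, and the tissue around the stimulated points was excised with the muscle in it. The placebo was therefore not applied at the sampled site. The ages of the rats and the point each sample came from are not given in the sources used here. Levels are given in CPM, counts per 1e+06 reads after the authors' scaling between libraries, and 1 CPM stood for between 4.19 and 10.1 reads.

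Calcium enters muscle and its neighbouring cells by several routes. In store-operated entry, STIM1 senses a fall of calcium in the endoplasmic or sarcoplasmic reticulum and opens ORAI channels in the plasma membrane. Voltage-gated channels open when the membrane depolarises, receptors for extracellular nucleotides such as P2Y2 release calcium from the stores through Gq and inositol trisphosphate, and TRP channels such as TRPV2 have been linked to heat, stretch and lipids. Stretch or injury of a tissue is known to set free ATP and to start calcium waves, and the response of such genes to the needle is the question the comparisons address.

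The sequence upstream of the start is shown for Stim1, Cacnb2 and P2ry2, which are the genes with an entry among the 4 whose libraries were both lower in AP_1h than in RA_0. Cacna1g and Orai2 had no entry in the RefSeq promoter table. The letters are the 250 bases before the start annotated by RefSeq on build GRCr8, 5′ to 3′ on the strand of the gene. Capitals mark the GC box GGGCGG, to which factors of the Sp family are known to bind, and the E-box CACGTG, which is bound by helix-loop-helix factors, both searched on either strand. Stim1 lies at chr1:166067964-166068213 on the plus strand, Cacnb2 has starts behind chr17:82472965-82473214 and chr17:82596542-82596791, both on the plus strand, and P2ry2 lies at chr1:164779489-164779738 on the minus strand.
P2ry2: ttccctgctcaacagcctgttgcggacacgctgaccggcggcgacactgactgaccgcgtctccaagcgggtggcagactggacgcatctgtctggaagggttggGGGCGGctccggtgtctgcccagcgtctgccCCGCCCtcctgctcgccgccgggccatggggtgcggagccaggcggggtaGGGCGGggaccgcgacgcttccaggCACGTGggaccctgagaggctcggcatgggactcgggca
Stim1: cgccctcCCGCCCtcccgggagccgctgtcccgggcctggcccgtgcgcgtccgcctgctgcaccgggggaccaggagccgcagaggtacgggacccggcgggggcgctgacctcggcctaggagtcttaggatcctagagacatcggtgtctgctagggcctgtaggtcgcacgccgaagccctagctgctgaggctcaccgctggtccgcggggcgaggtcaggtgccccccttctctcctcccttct
Cacnb2, first start: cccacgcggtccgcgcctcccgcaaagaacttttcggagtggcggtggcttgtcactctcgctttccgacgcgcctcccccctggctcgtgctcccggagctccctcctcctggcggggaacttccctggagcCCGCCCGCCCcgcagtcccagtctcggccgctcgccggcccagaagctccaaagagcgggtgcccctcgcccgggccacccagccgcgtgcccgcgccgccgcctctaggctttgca
Cacnb2, second start: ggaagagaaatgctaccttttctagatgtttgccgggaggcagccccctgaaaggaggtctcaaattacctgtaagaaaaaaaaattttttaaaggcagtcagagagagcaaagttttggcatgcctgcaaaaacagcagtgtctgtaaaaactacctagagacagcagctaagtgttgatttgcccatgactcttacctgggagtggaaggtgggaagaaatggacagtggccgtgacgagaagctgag

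In the P2ry2 window the GC box was found 3 times, beginning 145, 114 and 64 bases before the start, and the E-box once, beginning 39 bases before it. In the first Cacnb2 window 2 GC boxes overlapped, beginning 117 and 113 bases before the start, and the second window held neither motif. The Stim1 window held 1 GC box, 243 bases before the start. Over the 8 windows of the 7 genes with an entry, 4 held a GC box and 1 held the E-box. Among 33469 windows of the same length in the RefSeq table the GC box was present in 30.5% and the E-box in 5.59%. The AP-1 site TGACTCA and the TATA box TATAAA were in none of the 8 windows, against 4.05% and 12.9% of all windows. CCAAT was in 3 and the NFAT core GGAAA in 2, against 34.0% and 56.9% of all. All were searched on both strands, and none of the motifs contains another. A match is a run of letters and not a site shown to be used in this tissue.

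One limit concerns all 9 genes. The samples hold several cell types, and in such bulk tissue fewer cells of a type cannot be told apart from less RNA per cell. Skeletal muscle was checked with Acta1, Ckm, Mb and Des, whose summed level was between 73805 and 226366 CPM in every library, and 3 keratinocyte markers summed to between 1.76 and 6.11 CPM. No pair of libraries agreed within sampling noise, since the smallest chi-square per degree of freedom was 25.1. The libraries held between 5371687 and 8899521 counted reads. Sums of cell type markers are set beside some of the genes, and their part in the levels was not tested. Correlations with these sums are Pearson r over the 10 libraries on the log2(CPM + 1) scale, given as a description, since the points share their libraries and groups.

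Stim1, the calcium sensor of the reticulum, was measured at between 1351 and 2725 reads in every library and was the least variable of the 9. Its level was 347 and 312 CPM in RA_0, 252 and 259 CPM in AP_1h, 256 and 381 CPM in PLA_1h, 264 and 299 CPM in AP_34d, and 267 and 387 CPM in PLA_34d. Both acupuncture groups lay wholly below RA_0, and both placebo groups overlapped it. The change from RA_0 to AP_1h was -0.36 ± 0.34 on the log2(CPM + 1) scale (SE, n = 2 against 2), little more than its own error, and the limma adjusted p was 0.803. Over the 10 libraries it had an r of 0.70 with the sum of the skeletal muscle markers. Per the files, Stim1 (NM_001108496) spans 159761567 to 159925836 on chromosome 1 of build rn4.

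The pore subunits of store-operated entry differed in how far replicates agreed. Orai1 (NM_001013982, chromosome 12, 34631248 to 34646316) was at 151 and 74.0 CPM in RA_0, 93.3 and 75.7 CPM in AP_1h, 56.2 and 130 CPM in PLA_1h, 132 and 102 CPM in AP_34d, and 49.6 and 86.9 CPM in PLA_34d. Replicates of RA_0 thus differed by 2.04-fold before any therapy, and both AP_34d libraries lay above both PLA_34d libraries. Orai1 had an r of 0.80 with the sum of the skeletal muscle markers and of 0.76 with that of 8 fast fibre markers. Orai3 (NM_001014024, chromosome 1, 187054514 to 187059373) was at 19.3 and 15.3 CPM in RA_0, 24.0 and 11.2 CPM in AP_1h, 12.9 and 19.0 CPM in PLA_1h, 21.9 and 20.6 CPM in AP_34d, and 15.8 and 16.2 CPM in PLA_34d. Its highest and its lowest library were the replicates of AP_1h. For AP_34d against PLA_34d the log2 change was 0.81 ± 0.48 for Orai1 and 0.39 ± 0.38 for Orai3 (SE), with limma adjusted p of 0.883 and 0.928.

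Orai2 (NM_001170403, chromosome 12, 21615679 to 21635798), the pore subunit known best from blood and nerve cells, was low in all libraries but 1. It was at 1.43 and 2.38 CPM in RA_0, 3.46 and 2.52 CPM in AP_1h, 2.78 and 0.526 CPM in PLA_1h, 1.56 and 1.49 CPM in AP_34d, and 17.5 and 0.995 CPM in PLA_34d. The replicates of PLA_34d held 156 and 7 reads, a 17.6-fold difference in CPM within 1 group, so that the mean of that group stood for neither animal. Both AP_1h libraries lay above both RA_0 libraries, with 0.47 ± 0.85 (SE) as the log2 change and a limma adjusted p of 0.917.

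Among the voltage-gated channels, Cacna1c (NM_012517, chromosome 4, 154895691 to 155517389), the pore of the cardiac and smooth muscle L-type channel, showed no group apart from RA_0. Its level was 25.5 and 14.3 CPM in RA_0, 11.8 and 16.2 CPM in AP_1h, 15.1 and 17.02 CPM in PLA_1h, 11.1 and 22.1 CPM in AP_34d, and 18.3 and 14.6 CPM in PLA_34d. Every group's range overlapped that of RA_0. It had an r of -0.77 with the sum of 4 adipocyte markers, which was between 132 and 339 CPM. Most of that sum was Fabp4, with 318 of 339 CPM in AP_34d replicate 1, where the sum was highest. The other 3 markers, Adipoq, Plin1 and Lep, did not follow it. They were highest in PLA_34d replicate 1, where Cacna1c was at 18.3 CPM. The r thus describes mainly Fabp4.

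Cacna1g and Cacnb2 were both lowest in AP_1h. Cacna1g (NM_031601, chromosome 10, 83043636 to 83112886) encodes the pore of a T-type channel, which opens at small depolarisations. It was at 3.58 and 8.32 CPM in RA_0, 1.84 and 1.40 CPM in AP_1h, 2.97 and 2.63 CPM in PLA_1h, 3.71 and 3.29 CPM in AP_34d, and 4.15 and 3.13 CPM in PLA_34d. Both AP_1h libraries lay below the 8 others, and the mean of RA_0 was raised by replicate 2. The log2 change from RA_0 to AP_1h was -1.32 ± 0.40 (SE), 2.50-fold lower, with an unadjusted p of 0.00809 and an adjusted p of 0.341 (limma). Between 10 and 56 reads per library stand behind these levels. Without RA_0 replicate 2 the log2 change was -0.81, and without RA_0 replicate 1 it was -1.84.

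Cacnb2 (NM_053851, chromosome 17, 88853246 to 89078870) encodes a beta subunit, which carries L-type pores to the membrane. Its replicates were close in RA_0, at 5.96 and 6.09 CPM, and in AP_1h, at 1.73 and 1.96 CPM. It was at 4.26 and 3.51 CPM in PLA_1h, 3.91 and 1.79 CPM in AP_34d, and 5.72 and 3.98 CPM in PLA_34d. RA_0 lay above all 8 treated libraries, and this gene was the only one of the 9 to lie below RA_0 without overlap in all 4 treated groups. The log2 change from RA_0 was -1.31 ± 0.38 in AP_1h (SE, 2.47-fold lower, unadjusted p 0.0062, limma adjusted p 0.312) and -0.92 ± 0.38 in AP_34d (1.90-fold lower, unadjusted p 0.0348, limma adjusted p 0.967). Over both times, acupuncture against placebo gave -0.71 ± 0.27 (SE, 1.64-fold lower, unadjusted p 0.0241, limma adjusted p 0.775). The counts behind these levels were 12 to 51 reads per library.

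P2ry2 (NM_017255, chromosome 1, 158440018 to 158454210) encodes the receptor for ATP and UTP whose promoter letters are printed above. It was at 67.5 and 41.0 CPM in RA_0, 22.6 and 17.9 CPM in AP_1h, 36.6 and 27.2 CPM in PLA_1h, 46.7 and 53.3 CPM in AP_34d, and 58.1 and 32.4 CPM in PLA_34d. Both AP_1h libraries lay below the 8 others, the PLA_1h libraries lay between AP_1h and RA_0, and at 34 d both groups overlapped RA_0. The mean went from 54.3 ± 18.8 CPM in RA_0 to 20.3 ± 3.31 CPM in AP_1h (SD, n = 2), which is -1.34 ± 0.37 on the log2(CPM + 1) scale (SE, 2.54-fold lower, unadjusted p 0.00456, limma adjusted p 0.282). With at least 128 reads in every library it was the best counted of the 3 genes that met the study's rule. Without RA_0 replicate 1 its log2 change was -0.99, which is under the fold the rule asks for.

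Trpv2 (NM_017207, chromosome 10, 48764894 to 48786150), an ion channel of the TRP family that is also made by macrophages, was at or near the limit of detection in RA_0, with 0.716 and 0.594 CPM from 3 and 4 reads. It was at 5.62 and 0.840 CPM in AP_1h, 2.87 and 1.23 CPM in PLA_1h, 0.586 and 1.195 CPM in AP_34d, and 6.51 and 1.42 CPM in PLA_34d. Replicate 1 was the higher in AP_1h by 6.70-fold and in PLA_34d by 4.58-fold. AP_1h, PLA_1h and PLA_34d lay above RA_0 without overlap, and the log2 changes were 1.08 ± 0.67, 0.83 ± 0.67 and 1.37 ± 0.67 (SE), with limma adjusted p of 0.696, 1.00 and 0.914. Trpv2 reached 1 CPM in both libraries only in PLA_1h and PLA_34d, so it passed the filter through groups where it was high. Its place above RA_0 in those groups is in part set by the filter and lends no support. The same holds where Trpv2 is counted as apart below.

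**Figure D1:**
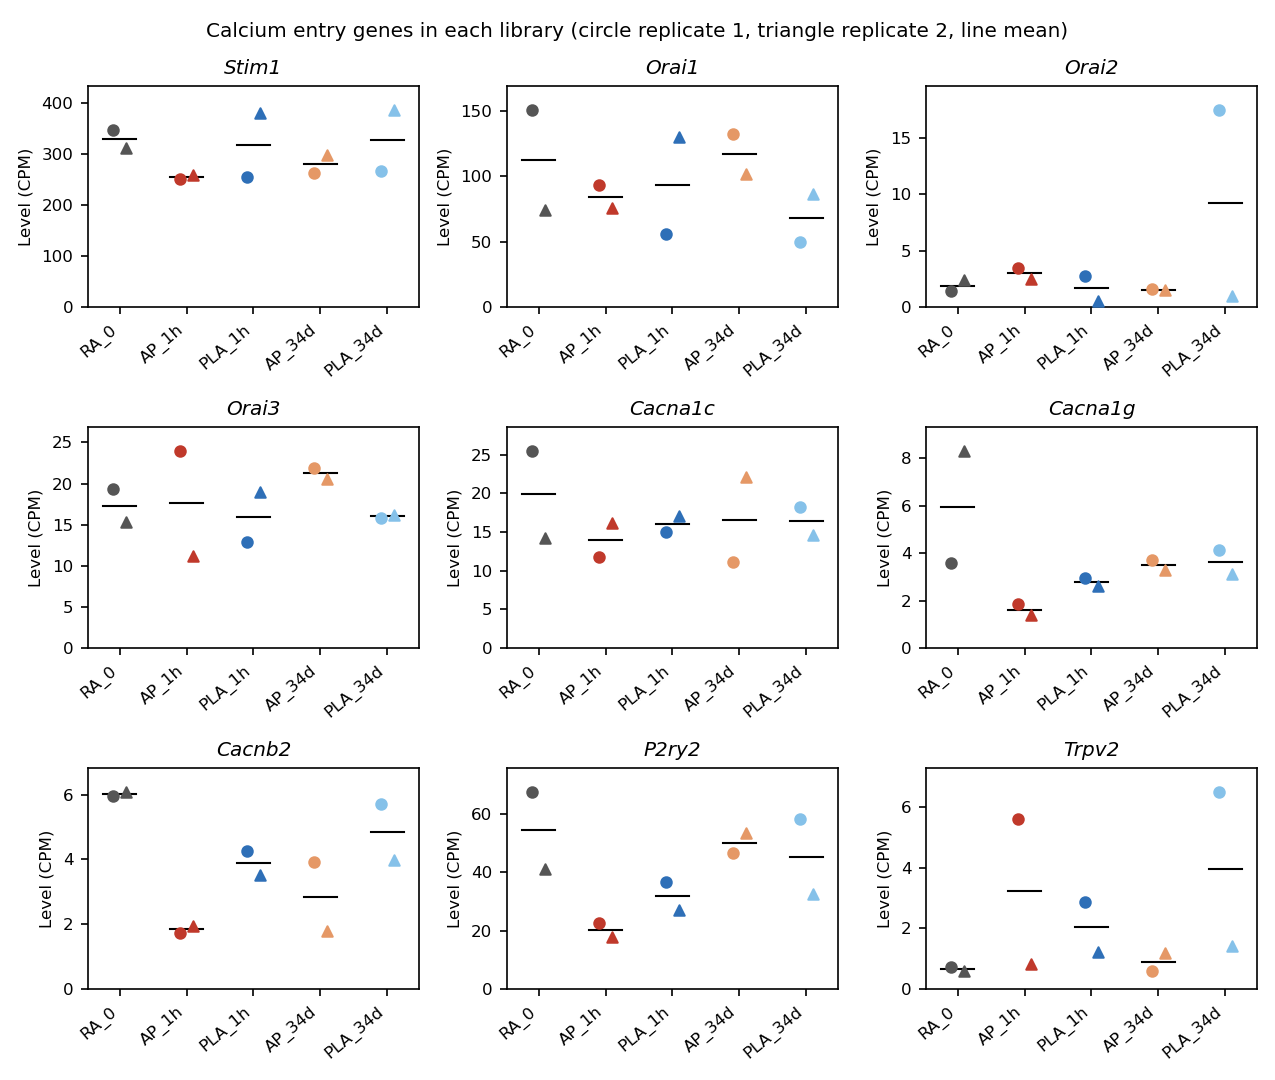
Level of each of the 9 genes (CPM, linear axis from 0) in the 5 groups, with a circle for replicate 1, a triangle for replicate 2 and a line at the group mean. Cacna1g, Cacnb2 and P2ry2 are lowest in AP_1h, and Orai2 in PLA_34d is set by 1 library at 17.5 CPM.

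Read across the 9 genes, AP_1h was first set against RA_0, to see which of them differed in the tissue 1 h after the needle. No gene passed the adjusted limma test, where 0.0292% of all transcripts tested passed, and none passed with limma-voom, edgeR or DESeq2. By the study's rule (an unadjusted p under 0.05 with a change of 2-fold or more and a mean over the compared libraries of 1 CPM or more), 3 of the 9 were lower in AP_1h, namely Cacna1g, Cacnb2 and P2ry2, and 0 were higher. Of all transcripts tested, 3.59% met the rule as lower and 2.53% as higher. The same 3 genes were those at an unadjusted p under 0.05, which 8.89% of transcripts reached. The libraries of both groups did not overlap for 6 of the 9, which was so for 41.6% of all transcripts. Of these, the 4 genes Stim1, P2ry2, Cacna1g and Cacnb2 were lower, beside 21.0% of all transcripts, and the 2 genes Orai2 and Trpv2 were higher, beside 20.6%. Below 0 were 7 of the 9 log2 changes, and their median was -0.36, beside 0.00 for all transcripts tested. The 9 genes were chosen with earlier results of these data known. Counts and shares, here and in the comparisons below, are therefore set side by side as a description only.

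The placebo at 1 h was read against the same RA_0 libraries, so that a high or low RA_0 value enters both comparisons. In PLA_1h 0 of the 9 met the study's rule, which 1.67% of all transcripts met. The log2 changes of P2ry2, Cacna1g and Cacnb2 were -0.72 ± 0.37, -0.78 ± 0.40 and -0.53 ± 0.38 (SE), each below 0 with libraries apart from RA_0, and the smallest unadjusted p of limma was 0.0804, where 2.59% of all transcripts had one under 0.05. Libraries were apart for 4 of the 9 genes, beside 29.4% of all transcripts. The direct comparison of AP_1h with PLA_1h asked whether needle and injection differed. For Cacnb2, P2ry2 and Cacna1g the libraries did not overlap and were lower in AP_1h, which is 3 of the 9 beside 16.7% of all transcripts that were lower and 30.6% that were apart in either direction. The log2 changes were -0.78 ± 0.38 for Cacnb2, -0.62 ± 0.37 for P2ry2 and -0.54 ± 0.40 for Cacna1g (SE). For these limma gave unadjusted p of 0.0673, 0.123 and 0.208, where 4.04% of all transcripts had one under 0.05, and 0 of the 9 met the study's rule, which 2.62% of all met. A difference between acupuncture and placebo at 1 h was thus not detectable with 2 animals a group.

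Against RA_0, fewer of the genes stood apart at 34 d than at 1 h. For acupuncture the share of all transcripts that stood apart fell as well, from 41.6% to 32.3%. For placebo that share was 29.4% at 1 h and 31.0% at 34 d. There 0 of the 9 met the study's rule in AP_34d, where 2.82% of all transcripts did, and 0 in PLA_34d, where 2.42% did. In AP_34d, Stim1 and Cacnb2 lay below RA_0 and Orai3 above it without overlap, 3 of the 9 beside 32.3% of all transcripts, and Cacnb2 alone had an unadjusted p under 0.05, which 4.77% of transcripts had. In PLA_34d, Cacnb2 lay below and Trpv2 above, 2 of the 9 beside 31.0%, and none had an unadjusted p under 0.05, which 3.20% of transcripts had. Between AP_34d and PLA_34d, 4 of the 9 did not overlap, again beside 31.0%, with Orai1 and Orai3 higher and Trpv2 and Cacnb2 lower under acupuncture. No change had an unadjusted p under 0.05 in that comparison, where 5.47% of all transcripts had one, and 0 of the 9 met the study's rule, beside 3.57%.

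Over both times, acupuncture against placebo left 0 of the 9 genes without overlap, beside 2.83% of all transcripts, and 1 at an unadjusted p under 0.05 (Cacnb2), beside 5.72%. None met the study's rule there, beside 1.74%. For the difference between the times, the acupuncture effect at 34 d minus that at 1 h, 0 of the 9 passed at an unadjusted p under 0.05, where 4.05% of all transcripts did, and 0 met the study's rule, beside 3.84%. The largest of these differences were those of Orai2, -1.99 ± 1.197, and Trpv2, -1.44 ± 0.95 (log2, SE), both with PLA_34d replicate 1 in them. An F test over the 5 groups gave an unadjusted p under 0.05 for P2ry2 (0.0238) and Cacnb2 (0.0413), 2 of the 9 beside 4.98% of all transcripts, and the smallest limma adjusted p was 0.931. No permutation test is given for single genes, since the smallest exact p that 2 libraries against 2 allow is 0.333.

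**Figure D2:**
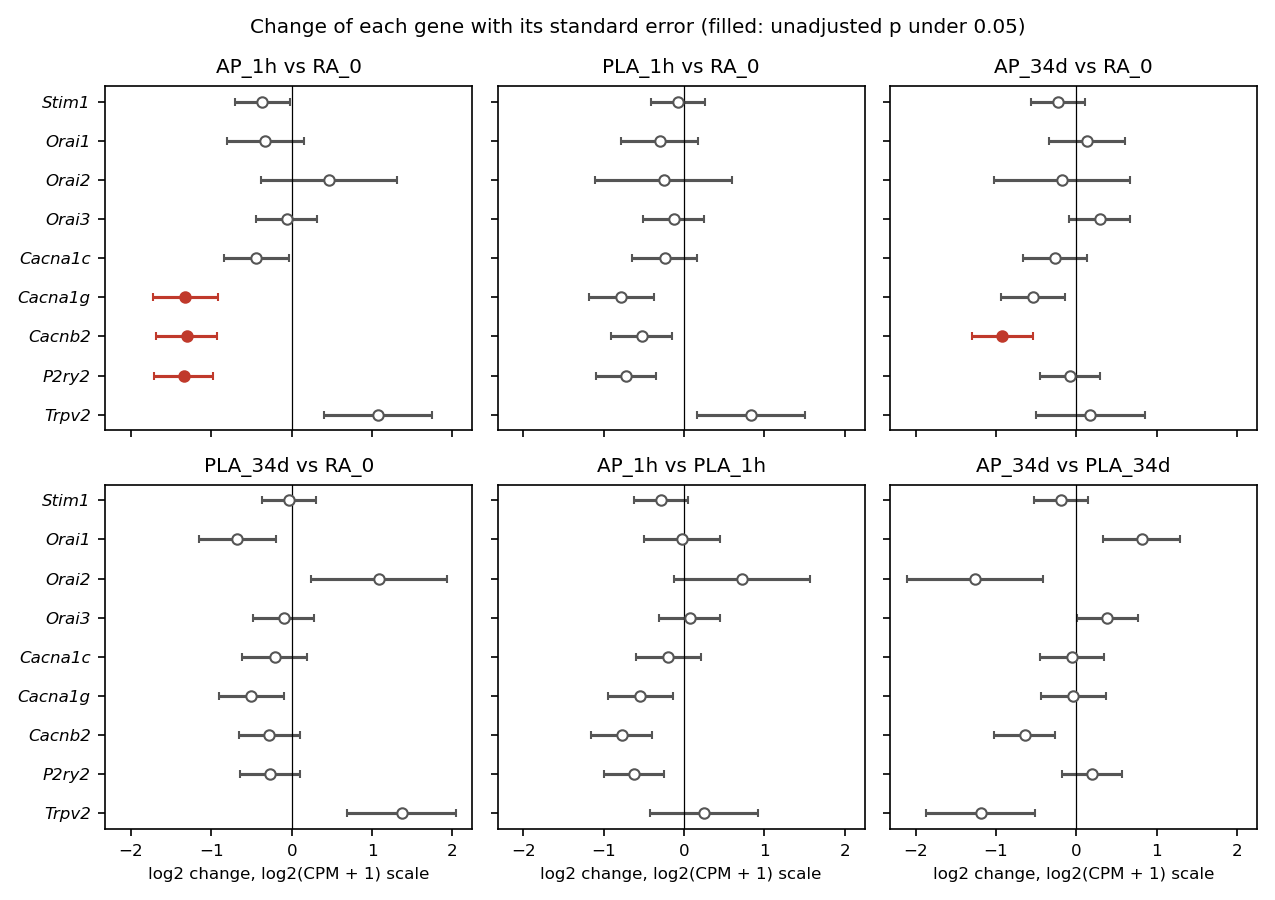
Log2 change of each of the 9 genes on the log2(CPM + 1) scale with its standard error, in 6 comparisons, filled red where the unadjusted limma p was under 0.05. The 3 filled points for AP_1h against RA_0 lie between -1.34 and -1.31, and the changes in PLA_1h for the same genes lie on the same side of 0 but nearer to it.

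Markers of slow muscle fibres moved with the 3 genes that were lower in AP_1h. The summed level of the 8 slow fibre markers in the list, measured as 11 transcripts, was 20051 and 10120 CPM in RA_0, 1013 and 1146 CPM in AP_1h, 4212 and 1861 CPM in PLA_1h, 11200 and 1924 CPM in AP_34d, and 20022 and 1727 CPM in PLA_34d. Of the 11 transcripts, 9 were detected, and 2 Atp2a2 transcripts were listed at 0 throughout. All 9 were lower in both AP_1h libraries than in both RA_0 libraries, beside 21.0% of all transcripts tested. In PLA_1h all 9 were lower without overlap as well, where 29.4% of all transcripts were apart in either direction. In AP_34d 4 were lower, beside 32.3% apart in either direction, and in PLA_34d 0, beside 31.0%. Over the 10 libraries the sum had a Pearson r of 0.85 with Cacnb2, 0.82 with P2ry2 and 0.70 with Cacna1g on the log2(CPM + 1) scale, and of -0.02 with Stim1. These values share the libraries and the group differences and are given as a description. The part of fibre type in the lower levels of the 3 genes was not tested. At PLA_34d the sums of the replicates were 11.6-fold apart, while Cacnb2 was at 5.72 and 3.98 CPM. The sum of 4 smooth muscle markers was 188 and 217 CPM in RA_0, 148 and 127 CPM in AP_1h, 139 and 120 CPM in PLA_1h, 178 and 89.3 CPM in AP_34d, and 146 and 149 CPM in PLA_34d. Like Cacnb2 it was above all 8 treated libraries in RA_0, and it had an r of 0.70 with Cacnb2, 0.55 with Cacna1g and 0.22 with P2ry2. Its markers differed, and only Smtn was by itself above all 8 treated libraries in RA_0. Of the 4, 2 were lower and 1 (Cnn1) was higher in AP_1h than in RA_0 without overlap, beside 21.0% and 20.6% of all transcripts.

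Schwann cell markers were also uneven in the reference group. Their sum over 5 symbols was 49.4 and 253 CPM in RA_0, 61.8 and 39.9 CPM in AP_1h, 162 and 59.5 CPM in PLA_1h, 52.1 and 59.5 CPM in AP_34d, and 107 and 53.2 CPM in PLA_34d. Of the 10 transcripts, 5 of Mbp were listed at 0 in every library. The library with the highest sum, RA_0 replicate 2, is also the library with the highest Cacna1g (8.32 CPM), and over the 10 libraries the r of both was 0.71. Whether nerve in that sample bears on Cacna1g was not tested.

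Markers of leukocytes moved with Orai2 and Trpv2. Their sum was 149 and 127 CPM in RA_0, 515 and 157 CPM in AP_1h, 183 and 172 CPM in PLA_1h, 265 and 134 CPM in AP_34d, and 888 and 115 CPM in PLA_34d. The same 2 libraries, PLA_34d replicate 1 and AP_1h replicate 1, thus held the highest and second highest marker sum and the highest and second highest level of both Orai2 and Trpv2. Of the 7 symbols, 6 were detected, with Cd3e of T cells at 36.3 CPM in PLA_34d replicate 1 and at most 4.22 CPM elsewhere. Most of the sum was Cd74, with 680 of 888 CPM in PLA_34d replicate 1 and 442 of 515 CPM in AP_1h replicate 1. Of the 6, 4 were highest in PLA_34d replicate 1, and Cd68 and Itgam were highest in AP_1h replicate 1. The 5 transcripts of Ptprc, which overlap one another, were listed at 0 in all libraries. Over the 10 libraries the sum had a Pearson r of 0.82 with Orai2 and 0.82 with Trpv2, and their part in the levels of both genes was not tested. Muscle markers ran the other way. The sum of the 8 fast fibre markers had an r of -0.89 with Orai2 and -0.82 with Trpv2, and that of the 4 skeletal muscle markers -0.69 and -0.74. PLA_34d replicate 1 held the lowest sum of both, 66632 CPM of fast fibre markers in a range up to 182075 CPM, and 73805 CPM of skeletal muscle markers, and AP_1h replicate 1 the second lowest, 90091 and 74305 CPM.

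**Figure D3:**
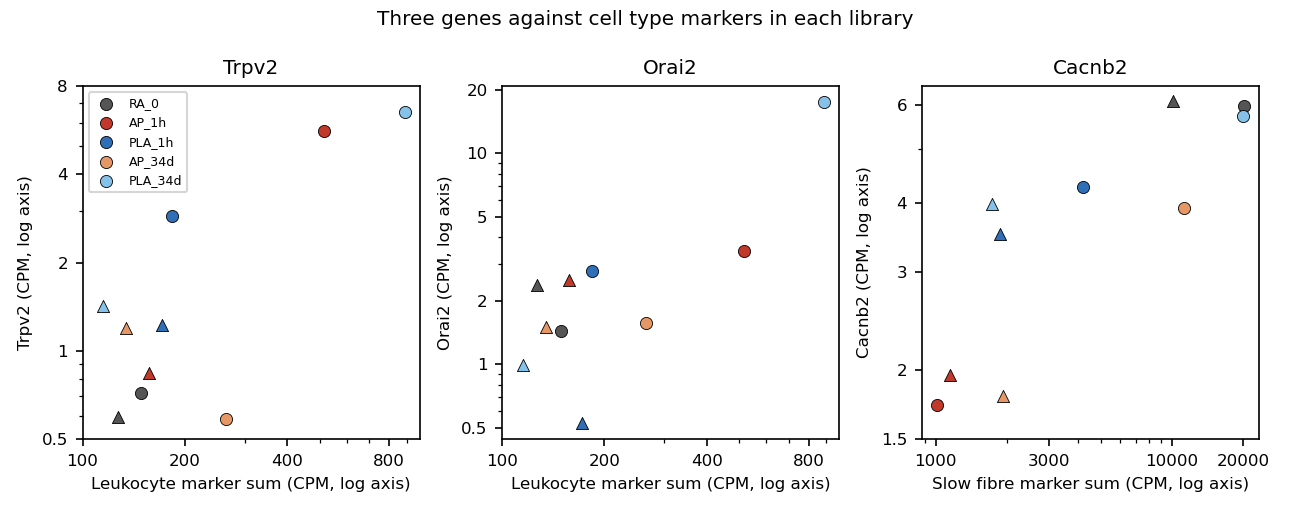
Level of Trpv2 and Orai2 against the summed leukocyte markers, and of Cacnb2 against the summed slow fibre markers, in CPM on log axes, with a circle for replicate 1 and a triangle for replicate 2 of each group. PLA_34d replicate 1 and AP_1h replicate 1 lie to the upper right for Trpv2, and both AP_1h libraries lie to the lower left for Cacnb2.

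The 9 genes varied together only in part. The closest pairs over the 10 libraries were Cacna1g with Cacnb2 (Pearson r 0.74 on the log2(CPM + 1) scale) and Orai2 with Trpv2 (0.73), and Orai1 and Orai2 ran opposite to each other (-0.73). Outside the list, the transcripts whose pattern was most like that of a gene were Tspan11 (0.98) and Esm1 (0.94) for Cacnb2, Clcn2 (0.96) and Ano1 (0.94) for Cacna1g, and Grm4 (0.94) and Spats2l (0.93) for P2ry2. For Orai2 they were Mcm3, a subunit of the helicase that opens DNA for replication (0.98), and Sp110 (0.98), and for Trpv2 one of them was Slpi (0.93), all 3 highest in PLA_34d replicate 1. Orai1 was most like Zfp358 (0.98) and Fdps (0.98), Orai3 like Sidt2 (0.95) and Pcbp3 (0.94), Stim1 like Cblc (0.89) and Opa3 (0.89), and Cacna1c like Mtmr3 (0.93) and Asb3 (0.86). Each is a Pearson r over the same 10 libraries, among the highest 2 of all transcripts tested.

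The rest of the calcium entry pathway was read from 5 lists of related genes, of which 46 genes (47 transcripts) were tested. None passed the adjusted limma test in any of the 8 comparisons. For AP_1h against RA_0, 6 of the 47 had an unadjusted p under 0.05, beside 8.89% of all transcripts, and 4 met the study's rule, 8.51% beside 6.12% of all transcripts. The 3 that were lower were Trpc1, Trpm4 and Nfatc2, and the 1 that was higher was Fam38a, now called Piezo1, a gene of the lists that was picked for naming after its values had been seen. The median log2 change of the 47 was -0.19. These lists, too, were chosen with earlier results of these data known, so their counts are a description only.

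Among the 9 tested partners of store-operated entry the median log2 change at 1 h of acupuncture was -0.40. The rule was met as lower by 1 of them, beside 3.59% of all transcripts. This was Trpc1, a cation channel that can join store-operated entry, at 2.15 and 2.67 CPM in RA_0, 0.324 and 0.560 CPM in AP_1h, 2.58 and 2.11 CPM in PLA_1h, 1.37 and 1.05 CPM in AP_34d, and 3.70 and 2.99 CPM in PLA_34d. Both acupuncture groups lay below all 6 other libraries, on 3 and 4 reads in AP_1h. Acupuncture against placebo over both times gave a log2 change of -1.09 ± 0.25 (SE, unadjusted p 0.00128, limma adjusted p 0.433). Itpr2, an inositol trisphosphate receptor, was at 11.9 and 16.6 CPM in RA_0, 8.54 and 6.86 CPM in AP_1h and 15.6 and 11.4 CPM in PLA_1h. At 34 d it was at 12.3 and 19.3 CPM in AP_34d and highest in PLA_34d, at 40.9 and 17.1 CPM.

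Of the 5 tested channels that open on mechanical force or are related to such channels, 1 met the rule as lower and 1 as higher in AP_1h. Of all transcripts, 3.59% met it as lower and 2.53% as higher. Trpm4, a calcium-activated cation channel, was at 22.2 and 26.9 CPM in RA_0, 11.1 and 8.40 CPM in AP_1h, 14.6 and 13.9 CPM in PLA_1h, 19.7 and 16.9 CPM in AP_34d, and 22.2 and 24.3 CPM in PLA_34d, with -1.25 ± 0.29 (SE) as the log2 change from RA_0 to AP_1h and a limma adjusted p of 0.233. Fam38a was at 11.5 and 23.5 CPM in RA_0, 88.8 and 41.4 CPM in AP_1h, 41.1 and 10.5 CPM in PLA_1h, 19.3 and 22.4 CPM in AP_34d, and 26.2 and 16.1 CPM in PLA_34d. It encodes a pore that opens when the membrane is stretched, and both its AP_1h libraries were above the 8 others, with 1.82 ± 0.61 (SE) as the log2 change from RA_0 and a limma adjusted p of 0.395. Panx1, a channel that can let out ATP, was at 10.5 and 10.2 CPM in RA_0, 6.49 and 4.90 CPM in AP_1h, 18.04 and 29.1 CPM in PLA_1h, 21.1 and 11.1 CPM in AP_34d, and 13.6 and 22.6 CPM in PLA_34d. At 1 h acupuncture and placebo thus lay on either side of RA_0, and at 34 d both lay above it. Its log2 change from PLA_1h to AP_1h was -1.85 ± 0.41 (SE, unadjusted p 0.00103, limma adjusted p 0.481).

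Of the 11 tested subunits of voltage-gated channels and the 12 tested genes of purinergic receptors and Gq coupling, 0 met the rule for AP_1h against RA_0. The share over all transcripts was 6.12%. Cacng7 and Cacnb3 had the smallest F test p among the channel subunits. Cacnb3 reached 17.6 CPM in PLA_34d replicate 1 and lay between 1.195 and 5.19 CPM elsewhere, which is the library with the highest Orai2 and Trpv2. Cacng7 was at 8.59 and 3.42 CPM in RA_0, 1.95 and 3.22 CPM in AP_1h and 3.17 and 5.44 CPM in PLA_1h. At 34 d it was at 1.37 and 2.09 CPM in AP_34d and 3.03 and 5.54 CPM in PLA_34d. Gna11, a Gq alpha subunit, was at 15.7 and 17.4 CPM in RA_0 and 8.65 and 8.54 CPM in AP_1h. Both placebo groups were also below RA_0 without overlap. Their log2 changes were -0.46 ± 0.29 in PLA_1h and -0.32 ± 0.29 in PLA_34d (SE). P2ry14 was at 4.06 and 3.42 CPM in RA_0 and 3.46 and 1.96 CPM in AP_1h, which overlap. It was above RA_0 in PLA_1h, at 4.46 and 5.44 CPM, and below it in PLA_34d, at 1.91 and 2.42 CPM. In AP_34d both genes overlapped RA_0.

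Calcineurin, a phosphatase that calcium switches on, acts on NFAT transcription factors. In this list 1 of the 10 tested transcripts met the rule for AP_1h against RA_0, beside 6.12% of all transcripts. Nfatc2 was at 10.5 and 10.4 CPM in RA_0, 4.97 and 2.24 CPM in AP_1h, 8.92 and 4.74 CPM in PLA_1h, 8.79 and 6.87 CPM in AP_34d, and 18.96 and 7.39 CPM in PLA_34d. AP_1h, PLA_1h and AP_34d lay below RA_0 without overlap, and the log2 change from RA_0 to AP_1h was -1.38 ± 0.49 (SE) with a limma adjusted p of 0.433. Rcan2, which binds calcineurin, was at 110 and 92.7 CPM in RA_0, 49.6 and 73.5 CPM in AP_1h, 110 and 88.3 CPM in PLA_1h, 47.7 and 45.1 CPM in AP_34d, and 59.0 and 95.2 CPM in PLA_34d. Both acupuncture groups lay below RA_0, and PLA_1h overlapped it.

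**Figure D4:**
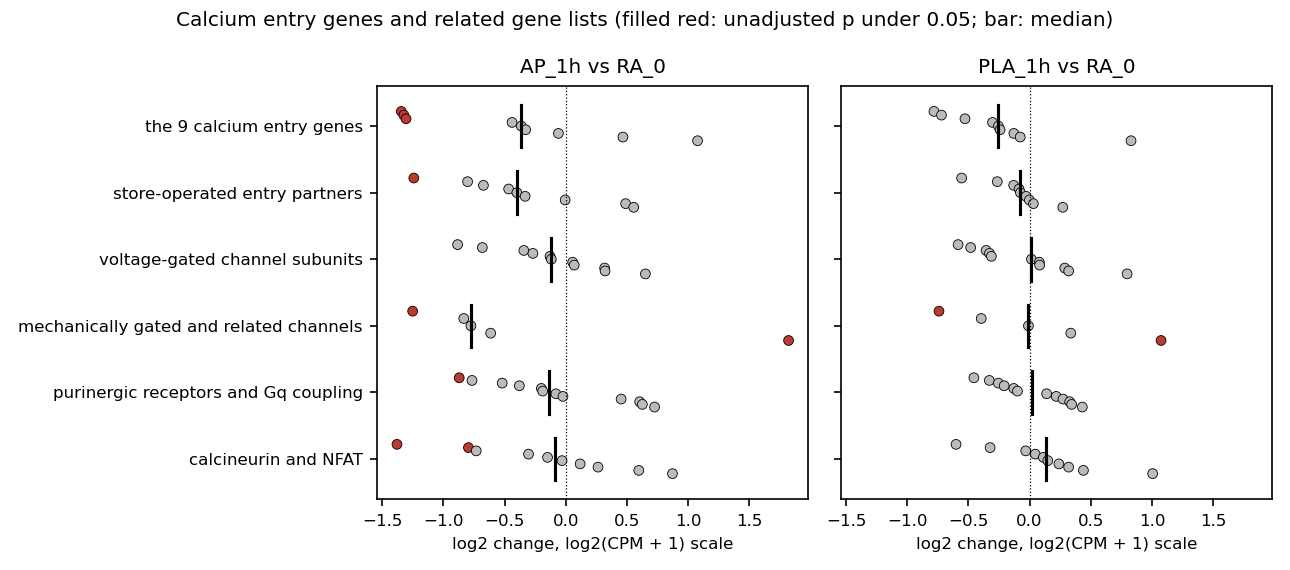
Log2 change of the 9 calcium entry genes and of the 5 lists of related genes for AP_1h and PLA_1h against RA_0, 1 point per transcript, red where the unadjusted limma p was under 0.05, with a bar at the median. The point farthest to the right for AP_1h is Fam38a at 1.82.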

How the data were processed

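Polyadenylated RNA libraries were sequenced by the authors on an Illumina HiSeq instrument. As stated per the labels and in the methods, reads were trimmed with cutadapt 1.2.1, aligned to rn4 with Bowtie2 2.1.0 and counted per transcript with HTSeq 0.5.4p3, and edgeR 3.4.2 scaled them. Use of strand is not stated, but none of the 9 transcripts overlaps another. The deposited values are a signal per transcript, TMM-scaled CPM, from which whole reads were recovered (100% of values within 0.01 reads). The 9 genes and the gene lists were chosen with earlier results of these data known.

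Transcripts that reached 1 CPM in both libraries of any group were tested on log2(CPM + 1) with limma 3.58.1 (R 4.3.3), with 1 mean per group over all 10 libraries and a mean trend in eBayes. Fold changes are on that scale, which understates those of low transcripts. Adjusted p are Benjamini-Hochberg values over all 10259 transcripts. Each group is 2 animals, so p-values rest on the spread of few samples. All 9 genes are named, the 2 genes of each list with the smallest F test p, and the 2 transcripts of highest r, 1 of which is not reported here for Trpv2. limma-voom, edgeR 4.0.16 and DESeq2 1.42.0 were run on the recovered reads, with other pseudocounts, filters, scalings and fits. The fit was tested on simulated counts. Sequences are from RefSeq on GRCr8, and rn4 coordinates count from 1.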

Additional observations from a re-analysis of the deposited data

How the results depend on the processing

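The 20 log2 changes given for the 9 genes kept their direction under each of the 23 alternatives that could be computed for them. Of these, the 15 with an unadjusted p of at least 0.05 were recomputed by a choice made after seeing the data. The changes of the related genes were not recomputed. The log2 change of Trpv2 from RA_0 lay between 0.15 (without AP_1h replicate 1) and 2.31 in AP_1h and between 0.55 (without PLA_34d replicate 1) and 2.61 in PLA_34d. Changes with an unadjusted p under 0.05 stayed between -1.90 and -0.78 for Cacna1g, -1.72 and -0.78 for Cacnb2, and -1.70 and -0.99 for P2ry2 (AP_1h against RA_0), with adjusted p between 0.0516 (P2ry2, DESeq2) and 0.982. For Cacnb2 it stayed between -1.33 and -0.52 in AP_34d against RA_0 and between -0.99 and -0.41 over both times, with adjusted p of at least 0.373. The count of genes meeting the study's rule moved as follows. For AP_1h against RA_0 it was 1 (P2ry2) with a pseudocount of 4 and with a mean of at least 5 CPM, which removes Cacna1g and Cacnb2 from the test, 4 (with Trpv2) under DESeq2, 2 without TMM factors, where Cacna1g was lost, and 2 to 4 with a library left out. P2ry2 was lost without RA_0 replicate 1 and Cacna1g without RA_0 replicate 2. For AP_34d against RA_0 it was 1 (Cacnb2) with limma-voom and with a pseudocount of 0.25, and 0 to 1 with a library left out (Cacna1g without RA_0 replicate 1, Cacnb2 without AP_34d replicate 1). For PLA_1h against RA_0 it was 0 to 1 with a library left out (Cacna1g without RA_0 replicate 1, P2ry2 without RA_0 replicate 2). For PLA_34d against RA_0 it was 1 with edgeR (Trpv2), 2 with DESeq2 (Orai2 and Trpv2) and 0 to 2 with a library left out, and for AP_34d against PLA_34d 1 with edgeR (Orai2), 2 with DESeq2 (Orai2 and Trpv2) and 0 to 2 with a library left out. For acupuncture against placebo over both times it was 0 to 1, and for the difference between the times 1 with edgeR, 1 with DESeq2 (Orai2 in both) and 0 to 2. PLA_34d replicate 2, the library with 7 Orai2 reads, decided the upper ends for the 2 comparisons with PLA_34d, for both times together and for the difference between the times. For AP_1h against RA_0 the 4 came without AP_1h replicate 2 (with Trpv2). Without PLA_34d replicate 2, PLA_34d was replicate 1 alone, assumed to vary like the other groups, Orai2 and Trpv2 met the rule in both 34 d comparisons with that group, and the adjusted test called 1 gene, Orai2, in each (0 to 1 with a library left out). The causes of the other shifts were not tested.

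Replicate numbers are shared by the groups in the labels. Over the 10 pairs of groups, deviations of same-numbered libraries correlated with r between -0.46 and 0.45, over 0.1 in 4, so the numbers were not taken as a pairing. With the replicate block, 1 gene (Trpv2) met the rule for PLA_34d against RA_0 and no other count of genes changed by over 1.5 times. Levels of Trpv2, Orai2, Cacna1g and Cacnb2 rest on 3 to 156 reads, so counting error is part of every difference in these genes.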
